A study of Sus scrofa with 41 samples.

Results

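The creatine and adenylate energy buffer of pig muscle was followed through 5 genes: CKM, CKMT2, AK1, AMPD1 and SLC6A8. They were listed by symbol, and each matched 1 of the 25880 Ensembl genes in the count tables. All 5 passed the filter on low counts, together with 11141 other genes. RNA sequencing had been done on psoas major muscle, the tenderloin, from 41 uncastrated male pigs that were fed freely to slaughter weight, 13 Danbred Duroc and 28 Danbred Landrace. Every pig was intact, purebred and sampled once, and no treatment separated the breeds. The feed conversion ratio (FCR), read here as feed eaten per weight gained because its values lie near 2 although the study's methods word the division the other way round, was 1.97 ± 0.103 (SD, n = 13) in Duroc and 2.10 ± 0.0796 (SD, n = 28) in Landrace. The Duroc pigs were 131 to 156 days old (median 148) and the Landrace pigs 147 to 166 days old (median 154.5). The RNA integrity number (RIN), a score of how intact the extracted RNA is, ran from 7 to 8.8 in Duroc and from 6.5 to 8.3 in Landrace. Breed, FCR, age and RIN were thus not independent of each other, and the 5 slaughter batches held 0 to 12 Landrace and 1 to 4 Duroc pigs each.

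Muscle fibres draw on phosphocreatine when contraction uses ATP faster than glycolysis or respiration can replace it. Creatine kinase moves the phosphate between creatine and ATP, with the cytosolic muscle form (CKM) working near the myofibrils and the sarcomeric mitochondrial form (CKMT2) working beside the inner membrane, where ATP is exported. Creatine itself enters the fibre through the transporter SLC6A8. Adenylate kinase 1 (AK1) recovers ATP from pairs of ADP molecules and so makes AMP, and AMP deaminase 1 (AMPD1) removes that AMP as IMP, the first step of the purine nucleotide cycle. Fast glycolytic fibres are known for high creatine kinase and AMP deaminase activity, and oxidative fibres for mitochondrial creatine kinase.

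In the RefSeq annotation of Sscrofa11.1, CKM (ENSSSCG00000036132) lies at chr6:51704021-51716935 and CKMT2 (ENSSSCG00000014128) at chr2:89796470-89830293. AK1 (ENSSSCG00000005627) lies at chr1:268355032-268365659, AMPD1 (ENSSSCG00000006754) at chr4:105868834-105892171 and SLC6A8 (ENSSSCG00000012771) at chrX:124435282-124452182. All 5 are protein-coding genes, and no other RefSeq gene overlaps any of them. The pigs had between 22188911 and 25954816 read pairs counted on genes. CKM alone took 1.58% to 2.98% of them, and the 5 genes together 1.89% to 3.32%. The tissue carried the markers of skeletal muscle: the summed level of 4 fast-fibre genes ran from 18197 to 69721 CPM (counts scaled to a common library size) and that of 6 slow-fibre genes from 1526 to 18489 CPM, while 6 leukocyte genes summed to 9.83 to 77.3 CPM and 5 fibroblast genes to 495 to 10257 CPM. Exon lengths were not used here, so the levels of different genes are not ranked against each other.

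The level of CKM in Duroc was 18432 CPM in the lowest pig, 24697 CPM at the median and 31230 CPM in the highest pig. In Landrace it was 19484, 24616 and 37066 CPM. The breeds overlapped almost entirely, with 26 of 28 Landrace pigs inside the Duroc range. CKM was the steadiest of the 5 genes, with a coefficient of variation of 13.9% over the 41 pigs. CKMT2 was at 524, 712 and 951 CPM in Duroc and at 394, 621 and 923 CPM in Landrace. For this mitochondrial form, 7 Landrace pigs lay below the lowest Duroc pig and none above the highest.

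The creatine transporter SLC6A8 was at 144, 197 and 341 CPM in Duroc and at 82.7, 152 and 277 CPM in Landrace. Here 10 Landrace pigs lay below the lowest Duroc pig. AK1 was at 925, 1258 and 2319 CPM in Duroc and at 787, 1461 and 2894 CPM in Landrace, the widest spread on the adenylate side, with a coefficient of variation of 30.2%. AMPD1 was at 686, 967 and 1238 CPM in Duroc and at 490, 1051 and 1530 CPM in Landrace. For this gene 5 Landrace pigs lay above the highest Duroc pig and 2 below the lowest. The pigs at the ends of these ranges recurred. Landrace pig 8 (pigs are numbered within their breed) was the lowest of all 41 for AK1, AMPD1 and SLC6A8, and Duroc pig 10 was the highest of all for SLC6A8 and the highest Duroc pig for AK1.

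**Figure D1:**
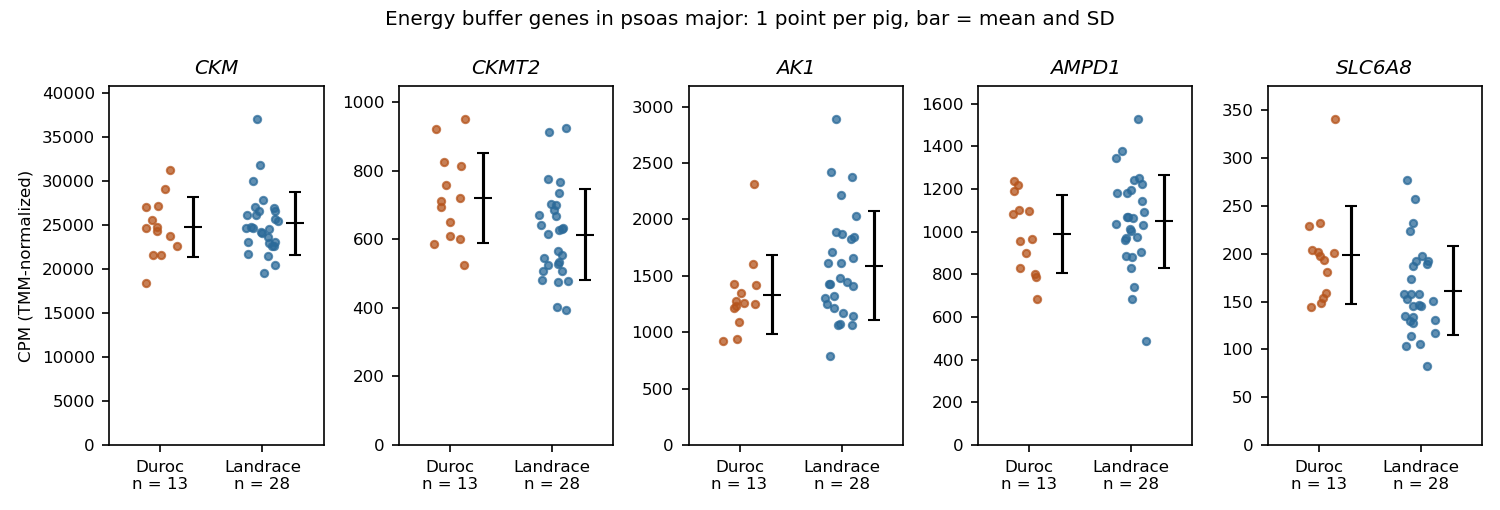
Level of each gene in CPM (TMM-normalized) in 13 Duroc and 28 Landrace pigs, 1 point per pig, with the mean and SD as a bar. The breeds overlapped for all 5 genes, and the levels without adjustment differed least for CKM, whose medians were 24697 and 24616 CPM.

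The first comparison was between the breeds, with FCR, RIN, age and batch held in the same model. AMPD1, AK1 and CKM were higher in Landrace and CKMT2 was lower, at a false discovery rate (FDR, edgeR quasi-likelihood test with Benjamini-Hochberg adjustment) under 0.1. These 4 of 5 genes are to be read against the whole table, in which 33.1% of 11146 genes passed the same test, 15.6% higher and 17.5% lower in Landrace. AMPD1 differed most, by 0.58 on the log2 scale (SE 0.116, FDR = 0.000421), a 1.5-fold level in Landrace with a 95% interval of 1.27 to 1.77. AK1 was higher by 0.38 (SE 0.131, FDR = 0.0280) and CKM by 0.24 (SE 0.0926, FDR = 0.0545). CKMT2 fell by 0.30 from Duroc to Landrace (SE 0.136, FDR = 0.0972). SLC6A8 gave 0.04 (SE 0.158, FDR = 0.889), with a 95% interval from -0.28 to 0.36. In bulk tissue, fewer fibres of a kind and less RNA per fibre cannot be told apart.

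These breed differences rested on the adjustment for the other terms. With breed as the only term, 0 of the 5 genes passed by edgeR, against 2209 of all genes (19.8%), and the values were 0.08 for AMPD1 (FDR = 0.642), 0.26 for AK1 (FDR = 0.211), 0.03 for CKM (FDR = 0.872), -0.23 for CKMT2 (FDR = 0.110) and -0.30 for SLC6A8 (FDR = 0.104). At an unadjusted p under 0.05, CKMT2 (p = 0.0231) and SLC6A8 (p = 0.0210) were the members below it in that edgeR model, where 27.5% of all genes were. AMPD1 passed in 16 of 17 alternative models and AK1 in 12, CKM in 10 and CKMT2 in 4. Leaving out FCR alone took away the calls of AK1 (0.26, FDR = 0.169) and CKM (0.20, FDR = 0.107), as did leaving out batch (0.26, FDR = 0.125, and 0.12, FDR = 0.405). On library size only AK1 gave 0.21 (FDR = 0.124) and CKM 0.06 (FDR = 0.675), neither of them called, while AMPD1 gave 0.41 (FDR = 0.0121) and CKMT2 -0.48 (FDR = 0.0043). The median of all genes shifted by -0.18 with that scaling, and relative to it AK1 stood at 0.39 under both scalings, CKM at 0.24, AMPD1 at 0.59 and CKMT2 at -0.30. A scaling moves all genes by nearly the same amount, so this likeness was bound to arise and does not say which scaling is right. CKM was also not called with no filter (0.25, FDR = 0.135) or with age left out (0.18, FDR = 0.103). Without Duroc pig 10 the calls of CKM (0.20, FDR = 0.116) and CKMT2 (-0.31, FDR = 0.116) were lost, and without Landrace pig 8 (-0.29, FDR = 0.138) or Landrace pig 27 (-0.30, FDR = 0.100302) that of CKMT2 was lost. The sign of SLC6A8 turned in 6 models.

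Within single batches, without any other term, the mean difference of AK1 was positive in all 4 batches that held both breeds, at 0.14, 0.41, 0.30 and 0.35 in batches 2, 3, 4 and 5. AMPD1 gave 0.36, -0.31, 0.07 and 0.18, so that batch 3 went the other way. CKM gave 0.05, 0.20, -0.08 and 0.13, and CKMT2 gave -0.56, 0.26, -0.33 and -0.32. SLC6A8 gave -0.24, -0.56, -0.13 and 0.02. Batch 1 held 1 Duroc pig and no Landrace pig.

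Fibre markers moved with breed in the same model. Of the 4 fast-fibre genes, 3 were higher in Landrace (TNNT3 by 0.60, TNNI2 by 0.55 and TNNC2 by 0.53, troponin subunits of fast fibres), and of the 6 slow-fibre genes 2 were lower, TNNI1 (-0.79) and ATP2A2 (-0.73). With a slow-fibre score added to the model, AMPD1 stayed higher in Landrace (0.47, FDR = 0.00319), as did CKM (0.24, FDR = 0.0767), AK1 missed the threshold (0.30, FDR = 0.106) and CKMT2 gave -0.20 (FDR = 0.327). All 3 endothelial genes, 2 of 5 fibroblast genes, 2 of 3 smooth muscle genes and 1 of 2 adipocyte genes were lower in Landrace, while 0 of 6 leukocyte and 0 of 2 erythroid genes passed. The adipocyte gene was ADIPOQ (-2.67), and FABP4, the other one tested, gave 0.25 (FDR = 0.576). Without adjustment the summed adipocyte level had a median of 22.0 CPM in Duroc and 34.7 CPM in Landrace. Of the nerve and Schwann cell genes none had enough counts to be tested. The summed endothelial level ran from 50.2 to 149 CPM in Duroc and from 27.0 to 122 CPM in Landrace, and the part of these cells in the differences was not tested.

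**Figure D2:**
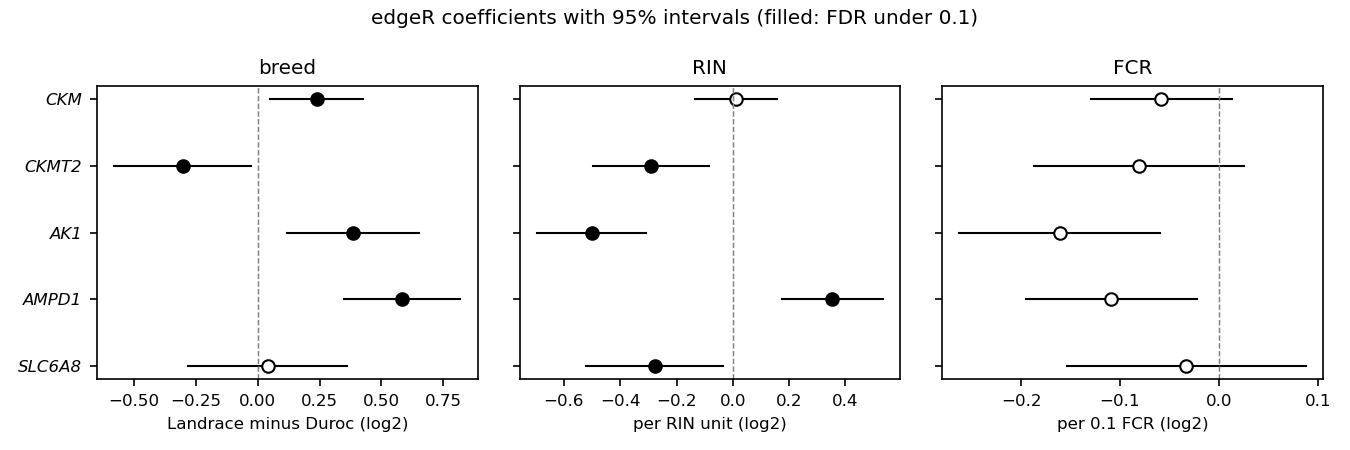
Coefficient of each gene for breed (Landrace minus Duroc), RIN (per unit) and FCR (per 0.1) on the log2 scale, from 1 edgeR model of 41 pigs, with 95% intervals as lines and filled points where FDR was under 0.1. AMPD1 was higher in Landrace and rose with RIN, AK1 was higher in Landrace and fell with RIN, and all 5 FCR coefficients were below 0 with no filled point, that of SLC6A8 turning positive on library size only and without Duroc pig 10.

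Of breed, RIN, FCR and age, RIN was the term with the most genes called, with 51.8% of the 11146 genes passing, 23.9% upwards and 27.9% downwards. Again 4 of the 5 genes passed, and they did not move together. AK1 fell by 0.50 per RIN unit (SE 0.0955, FDR = 5.92e-05), a 0.706-fold level, whereas AMPD1 rose by 0.35 (SE 0.0884, FDR = 0.00139), a 1.28-fold level. The enzyme that makes AMP and the enzyme that removes it therefore had opposite coefficients. CKMT2 fell by 0.29 (SE 0.10, FDR = 0.0178) and SLC6A8 fell by 0.28 (SE 0.119, FDR = 0.0563), and without TMM scaling, on library size only, both were slightly positive (0.03 and 0.05). CKM gave 0.01 (SE 0.0713, FDR = 0.923), with a 95% interval of -0.14 to 0.16, and on library size only it gave 0.31 (FDR = 0.000426). The median of all genes shifted by 0.31 between these scalings. A scaling moves all genes by nearly the same amount, so coefficients relative to that median were bound to stay alike. They were AK1 -0.49 and -0.49, AMPD1 0.36 and 0.37, CKMT2 -0.28 and -0.27, SLC6A8 -0.27 and -0.25, and CKM 0.02 and 0.02. They do not say which scaling is right.

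The pigs with the least intact RNA showed the contrast directly. Landrace pigs 1 and 27, with RIN 6.5 and 6.6, had AK1 at 2420 and 2894 CPM, the highest of all 41 pigs, and AMPD1 at 742 and 830 CPM, below the median of their breed. AK1 and AMPD1 passed in all 15 alternative models, including the one without these 2 pigs. CKMT2 and SLC6A8 each passed in 11 of 15. Besides library size only, CKMT2 lost its call without these 2 pigs (-0.17, FDR = 0.412), with no filter (-0.22, FDR = 0.118) and with a slow-fibre score added (-0.19, FDR = 0.140). SLC6A8 lost its call without Duroc pig 10, whose RIN was 7 (-0.16, FDR = 0.318), with no filter (-0.21, FDR = 0.213) and with the strand columns summed (-0.20, FDR = 0.159). Over the 41 pigs the correlation of AK1 with RIN was r = -0.710 (permutation p = 1e-05, the smallest that 100000 permutations can give, adjusted p = 0.00082 over 41 relations) and rho = -0.624 (permutation p = 2e-05, adjusted p = 0.00082). It was -0.599 without the 2 pigs farthest from the median RIN, -0.703 within Duroc and -0.683 within Landrace, and -0.755, -0.302 and -0.816 within batches 2, 3 and 5. For AMPD1 the correlation was 0.411 (permutation p = 0.00909, adjusted p = 0.0414) with rho = 0.371 (permutation p = 0.0174, adjusted p = 0.0647). It was 0.325 without the 2 farthest pigs, and 0.433, 0.316 and 0.474 within batches 2, 3 and 5.

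**Figure D3:**
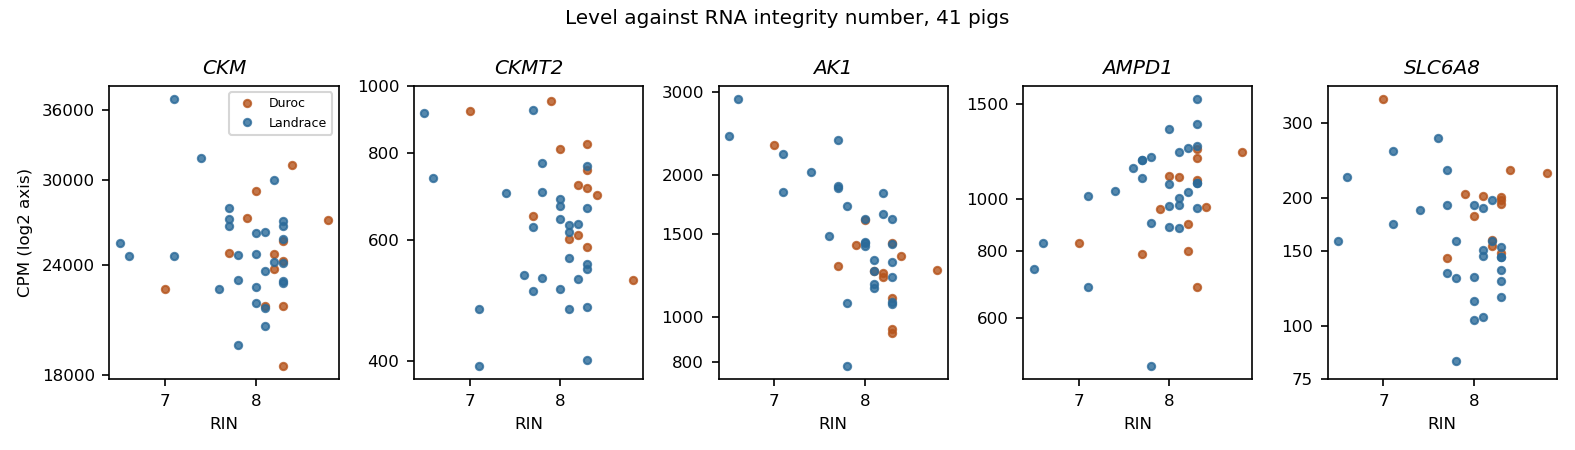
Level of each gene in CPM (log2 axis) against RIN, 1 point per pig, Duroc and Landrace in separate colours. AK1 declined from 2894 CPM in a pig of RIN 6.6 towards the pigs of higher RIN in both breeds, while AMPD1 was higher in the pigs of higher RIN and CKM showed no slope.

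Within the 28 Landrace pigs, where 42.9% of genes passed for RIN by edgeR, AK1 gave -0.53 (FDR = 0.000603), AMPD1 0.37 (FDR = 0.00931) and CKMT2 -0.25 (FDR = 0.0866). DESeq2 called AK1 and AMPD1 there but not CKMT2 (-0.25, FDR = 0.104). Within the 13 Duroc pigs no gene of any kind passed by edgeR (1824 had an unadjusted p under 0.05, and DESeq2 called 410, no member among them), and AK1 gave -0.37 (p = 0.185, edgeR) and AMPD1 0.36 (p = 0.0957, edgeR). The difference between the breeds in the RIN coefficient was tested directly and passed for no gene by edgeR or DESeq2 (541 had an unadjusted p under 0.05 by edgeR). Its p-values for the 5 genes ran from 0.202 for CKM to 0.675 for CKMT2. Fibre markers moved with RIN as well: 5 of 6 slow-fibre genes fell, and of the 4 fast-fibre genes 3 fell and ATP2A1 rose, a gene whose column held a median 39.7% of its pairs in the strand columns. Of the others, 3 of 5 fibroblast genes rose, while 2 of 2 erythroid, 1 of 6 leukocyte and 1 of 3 smooth muscle genes fell, and no endothelial or adipocyte gene passed. With the slow-fibre score added, AK1 gave -0.58 per RIN unit (edgeR FDR = 3.73e-05), AMPD1 0.24 (FDR = 0.0237) and SLC6A8 -0.40 (FDR = 0.00813), and CKMT2 lost its call (-0.19, FDR = 0.140). The part of the other markers in the RIN coefficients was not tested.

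Feed conversion was the trait the study was built around. No gene of 11146 passed at an FDR under 0.1 by edgeR (0%), while 968 genes (8.68%) had an unadjusted p under 0.05. DESeq2 called 5 genes, none of the 5 members among them. All 5 members had negative coefficients, none of which passed, against 48.5% of all genes, with the exception that SLC6A8 turned positive on library size only and without Duroc pig 10. AK1 changed by -0.16 on the log2 scale per 0.1 FCR (SE 0.0498, edgeR p = 0.00260, FDR = 0.529) and AMPD1 by -0.11 (SE 0.0426, edgeR p = 0.0150, FDR = 0.535). CKMT2 gave -0.08 (SE 0.0521, edgeR p = 0.128) and CKM -0.06 (SE 0.0350, edgeR p = 0.104). SLC6A8 gave -0.03 (edgeR p = 0.580). On library size only, where the median of all genes shifted by 0.58 per FCR unit, AMPD1 went from -1.09 to -0.51 per unit (edgeR p = 0.259), CKMT2 from -0.81 to -0.25, CKM from -0.58 to -0.02 and AK1 from -1.61 to -1.07. Relative to that median AK1 stood at -1.64 and -1.68, AMPD1 at -1.11 and -1.12, CKMT2 at -0.84 and -0.86 and CKM at -0.61 and -0.63. As for breed and RIN, that likeness was bound to arise and does not say which scaling is right.

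The FDR of AK1 ranged from 0.171 to 0.987 over 15 alternative models, with the coefficient below 0 in each. Within Landrace AK1 gave -1.77 per FCR unit (edgeR p = 0.0163, FDR = 0.834), and within Duroc -1.28 (edgeR p = 0.163, FDR = 0.790). SLC6A8 gave 0.58 per unit in Landrace and -1.25 in Duroc, and the difference between the breeds did not pass (edgeR p = 0.194, FDR = 0.938). For the other members the p-value of that difference ran from 0.309 to 0.966. Taken pig by pig without the model, CKMT2 and SLC6A8 had negative Pearson correlations with FCR at an adjusted permutation p under 0.1, and for SLC6A8 the rank correlation did not pass. CKMT2 gave r = -0.363 (permutation p = 0.0196, adjusted p = 0.0671), rho = -0.345 (permutation p = 0.0268, adjusted p = 0.0785), -0.253 without the 2 farthest pigs, and -0.406, 0.333 and -0.552 within batches 2, 3 and 5. Within Landrace it was -0.092 and within Duroc -0.431. SLC6A8 gave r = -0.342 (permutation p = 0.0295, adjusted p = 0.0834) and rho = -0.321 (permutation p = 0.0420, adjusted p = 0.111), with -0.244 without the 2 farthest pigs and -0.326, -0.474 and -0.580 within batches 2, 3 and 5. Within Landrace it was 0.074 and within Duroc -0.695. AK1 gave r = -0.091 (permutation p = 0.569, adjusted p = 0.718) and rho = -0.105 (permutation p = 0.512, adjusted p = 0.656). The 3 fast troponin genes also had negative FCR coefficients with an unadjusted p under 0.05 (TNNI2 -0.13, TNNT3 -0.11 and TNNC2 -0.10 per 0.1 FCR). The adipocyte gene ADIPOQ went the other way, with 1.09 per 0.1 FCR (edgeR p = 0.0101), at 2 to 1869 counts per pig. FABP4, the other adipocyte gene tested, gave 0.09 per 0.1 FCR, with an unadjusted edgeR p above 0.05. No marker gene passed at an FDR under 0.1. Age, the last term, was called for 196 genes (1.76%) by edgeR and for 0 of the 5, with AMPD1 at -0.03 per day (edgeR p = 0.00620, FDR = 0.155) and SLC6A8 at -0.03 per day (edgeR p = 0.0136, FDR = 0.191). DESeq2 called AMPD1 for age (-0.03 per day, FDR = 0.0819).

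A ratio of counts within a library does not depend on how libraries are scaled, so each gene was also set against CKM. The CKMT2 count was 1.94%, 2.93% and 4.08% of the CKM count in Duroc (lowest, median, highest) and 1.29%, 2.38% and 3.61% in Landrace. In the same linear model this ratio was lower in Landrace by -0.56 on the log2 scale (permutation p = 0.00042, adjusted p = 0.00252 over 12 tests) and fell by 0.30 per RIN unit (permutation p = 0.0102, adjusted p = 0.0211). In this model the RNA of CKMT2 was thus lower relative to that of CKM in Landrace. Without the 2 pigs of RIN under 7 the RIN coefficient of this ratio was -0.13 (adjusted permutation p = 0.478).

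The AK1 count was 3.82%, 5.17% and 10.3% of the CKM count in Duroc and 4.01%, 6.15% and 11.8% in Landrace. Its ratio gave 0.16 for breed (permutation p = 0.171, adjusted p = 0.256), -0.51 for RIN (permutation p = 1e-05, the smallest possible, adjusted p = 0.00012) and -0.12 per 0.1 FCR (permutation p = 0.0106, adjusted p = 0.0211). These p-values are adjusted over 12 tests and those of single genes over 11146, so they cannot be compared with each other. The AMPD1 count was 3.10%, 3.79% and 6.46% of the CKM count in Duroc and 2.52%, 4.27% and 5.95% in Landrace. Its ratio was higher in Landrace by 0.36 (permutation p = 0.00564, adjusted p = 0.0169) and rose by 0.34 per RIN unit (permutation p = 0.00069, adjusted p = 0.00276), and gave -0.06 per 0.1 FCR (permutation p = 0.203, adjusted p = 0.270). For SLC6A8, at a median of 0.752% in Duroc and 0.613% in Landrace, the ratio passed only for RIN (-0.26, permutation p = 0.0381, adjusted p = 0.0653), and for neither breed (-0.18, adjusted permutation p = 0.305) nor FCR (adjusted permutation p = 0.746). With age left out, the ratios of SLC6A8 for breed (-0.35, adjusted permutation p = 0.0378), AK1 for breed (0.20, adjusted permutation p = 0.0707) and AMPD1 for FCR (-0.86 per FCR unit, adjusted permutation p = 0.0748) passed as well.

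The count of CKM carries a limit, shared with 13.7% of the tested genes, whose column kept under 90% of the pairs in the strand columns. The column used counts a read pair only where 1 gene can claim it, whatever the strand, and it held 67.3% to 84.6% of the CKM pairs found in the 2 strand columns together. An unnamed Ensembl gene, ENSSSCG00000036235, lacked nearly the same number of pairs in each pig (median difference 261 pairs, of a median 148934 missing from CKM), so pairs that both genes may claim cannot be told apart. The Ensembl positions of the 2 genes were not used here. The other 4 genes kept at least 99.7%. The share kept rose with RIN across pigs (r = 0.637, permutation p = 1e-04, adjusted p = 0.00273, and rho = 0.501, permutation p = 0.00107, adjusted p = 0.0125), with 0.554 without the 2 farthest pigs, and 0.749, -0.05 and 0.622 within batches 2, 3 and 5. With the 2 strand columns summed, CKM gave 0.25 for breed (FDR = 0.0358) and 0.01 for RIN. The ratio of SLC6A8 to CKM then gave -0.18 per RIN unit (adjusted permutation p = 0.189).

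The 5 genes also differed in the company they kept across pigs. The slow-fibre score, the mean of the standardized levels of 6 slow-fibre genes, ran from -2.98 in Landrace pig 10 to 2.22 in Landrace pig 8. CKMT2 was higher in pigs with a higher score (r = 0.515, permutation p = 0.00054, adjusted p = 0.00886, and rho = 0.431, permutation p = 0.00555, adjusted p = 0.0361), with 0.437 without the 2 farthest pigs. Within batches 2, 3 and 5 that correlation was 0.837, -0.130 and 0.222, so it was strongest in batch 2 and absent in batch 3. AMPD1 was lower in pigs with a higher score (r = -0.566, permutation p = 0.00024, adjusted p = 0.00492, and rho = -0.409, permutation p = 0.00836, adjusted p = 0.0414). It kept that sign without the 2 farthest pigs (-0.349) and within batches 2, 3 and 5 (-0.719, -0.716 and -0.281), and was -0.679 within Landrace and -0.106 within Duroc. CKM, AK1 and SLC6A8 had correlations of -0.128, -0.013 and -0.083 with the score, none of which passed (adjusted permutation p from 0.579 to 0.971). After the terms of the model were removed, SLC6A8 gave r = -0.392 (adjusted permutation p = 0.0489), while its rho of -0.307 did not pass (adjusted permutation p = 0.128). AMPD1 then gave r = -0.502 (adjusted permutation p = 0.0120) and CKMT2 0.362 (adjusted permutation p = 0.0671). AK1 (-0.297, adjusted permutation p = 0.142) and CKM (0.007, adjusted permutation p = 0.983) did not pass.

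**Figure D4:**
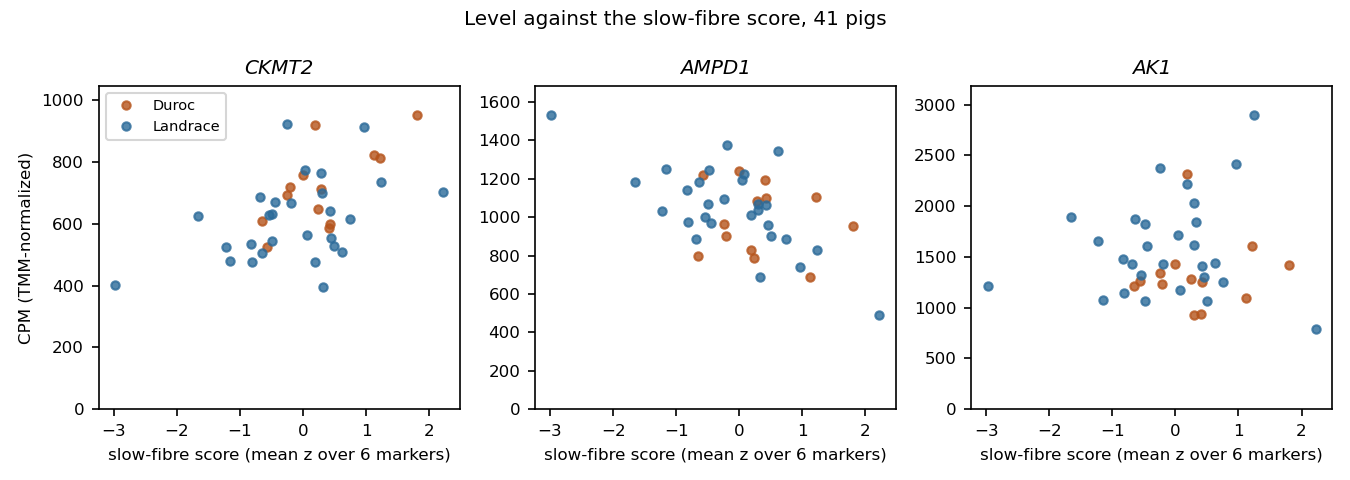
Level of CKMT2, AMPD1 and AK1 in CPM against the slow-fibre score (mean of the standardized levels of 6 slow-fibre genes), 1 point per pig by breed. CKMT2 was higher (r = 0.515) and AMPD1 lower (r = -0.566) in pigs with a higher score, AK1 showed no slope, and Landrace pigs 10 and 8 lie at the 2 ends of the score.

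Between the members, CKM and AK1 rose and fell together (r = 0.474, permutation p = 0.00214, adjusted p = 0.0219, and rho = 0.425, permutation p = 0.00572, adjusted p = 0.0361), with 0.366 without the 2 farthest pigs. Within batches 2, 3 and 5 the value was 0.418, 0.928 and 0.184. CKM and SLC6A8 gave r = 0.344 (permutation p = 0.0267, adjusted p = 0.0785), while rho = 0.282 did not pass (permutation p = 0.0743, adjusted p = 0.165), with 0.331 without the 2 farthest pigs and 0.333, 0.288 and 0.119 within batches 2, 3 and 5. AK1 and SLC6A8 gave r = 0.454 (permutation p = 0.0030, adjusted p = 0.0246) with rho = 0.347 (permutation p = 0.0263, adjusted p = 0.0785), 0.333 without the 2 farthest pigs, and 0.151, 0.518 and 0.703 within batches 2, 3 and 5. The creatine kinases themselves, CKM and CKMT2, gave r = -0.037 (permutation p = 0.820, adjusted p = 0.921) and rho = -0.006 (permutation p = 0.972, adjusted p = 0.983). AK1 and AMPD1, neighbours in the path of AMP, gave r = 0.044 (permutation p = 0.783, adjusted p = 0.892) and rho = -0.016 (permutation p = 0.919, adjusted p = 0.971). After the terms of the model were removed, CKM and AK1 gave r = 0.388 (permutation p = 0.0122, adjusted p = 0.0502) and rho = 0.407 (permutation p = 0.00858, adjusted p = 0.0414), with 0.507, 0.819 and -0.299 within batches 2, 3 and 5, so that batch 5 went the other way. AMPD1 and SLC6A8 then gave r = 0.457 (permutation p = 0.00261, adjusted p = 0.0238) and rho = 0.413 (permutation p = 0.0082, adjusted p = 0.0414), with 0.325 without the 2 farthest pigs and 0.117, 0.852 and -0.0007 within those batches. For AK1 with SLC6A8 (r = 0.439, adjusted permutation p = 0.0318) and AK1 with AMPD1 (r = 0.378, adjusted permutation p = 0.0638) the rank correlations did not pass (0.244 and 0.135), and without the 2 farthest pigs r was 0.145 and 0.0122. CKM with SLC6A8 did not pass (r = 0.113, adjusted permutation p = 0.631).

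With the terms of the model removed, the genes whose levels ran most like each member over the 41 pigs were found among 11145 others, and these values are descriptions with no test, from libraries the genes share. For CKMT2 they included ATP5F1A (r = 0.855), a subunit of ATP synthase, and NDUFC2 (r = 0.839), a subunit of respiratory complex I. For AK1 they were MYOZ3 (r = 0.901), TNNT3 (r = 0.899) and PDLIM7 (r = 0.898), of which MYOZ3 encodes a Z-disc protein and TNNT3 the fast troponin T. TNNT3 and AK1 had breed coefficients of the same sign, 0.60 and 0.38, and RIN coefficients of -0.50 and -0.50 per unit. For CKM they were CAMK2A (r = 0.738), TCEA3 (r = 0.720) and TLE1 (r = 0.717). AMPD1 ran most like USP9X (r = 0.754), MIA3 (r = 0.734) and SFMBT1 (r = 0.695), and SLC6A8 most like RRAGD (r = 0.805), ASB2 (r = 0.754) and CDH15 (r = 0.752).

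Around the 5 genes, 32 other genes of creatine supply, adenylate exchange and AMP sensing were tested. For breed 17 of them passed, 6 higher and 11 lower in Landrace (all genes 33.1%, 15.6% higher and 17.5% lower), with a median coefficient of -0.03 against -0.002 over all genes. Next to AMPD1 in the purine nucleotide cycle, ADSL (adenylosuccinate lyase, 0.59, FDR = 8.99e-05) and ADSS1 (the muscle adenylosuccinate synthase, 0.26, FDR = 0.0306) were higher in Landrace, while AMPD2 was lower (-0.36, FDR = 0.0749) and AMPD3 gave -0.03 (FDR = 0.974). ADSS2 gave -0.00062 (FDR = 0.998), so that 2 of the 5 genes of this group were higher and 1 was lower, and on library size only ADSS1 gave 0.09. The translocases that exchange ATP for ADP across the inner mitochondrial membrane were lower, like CKMT2: SLC25A4 by -0.26 (FDR = 0.0827), SLC25A5 by -0.68 (FDR = 0.0020) and SLC25A6 by -0.57 (FDR = 0.00114), while neither outer membrane channel passed. SLC25A5 had only 29 to 130 counts per pig.

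Brain-type creatine kinase CKB (-1.10, FDR = 0.000855) and GATM (-0.94, FDR = 0.0221), the first enzyme of creatine synthesis, were lower in Landrace, at 11 to 73 and 4 to 75 counts per pig, and the column held a median 73.9% of the pairs of CKB in the strand columns. Among the other adenylate kinases 1 of 4 passed, AK8 (-0.63, FDR = 0.0173), with AK6 at -0.11 and AK3 at 0.08. Of 9 genes of nucleotide breakdown and salvage 4 passed, 2 in each direction, among them ADA (-0.83, FDR = 0.00329), NT5C3A (0.41, FDR = 0.0263) and APRT (0.48, FDR = 0.0535). Of the 7 subunits of the AMP-activated protein kinase, the sensor of the AMP that AK1 makes, PRKAA2 (0.52, FDR = 0.00103) and PRKAG3 (0.55, FDR = 0.00805), which skeletal muscle is known for, were higher in Landrace. PRKAG1 (-0.40, FDR = 0.0188) and PRKAG2 (-0.60, FDR = 0.0308) were lower.

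**Figure D5:**
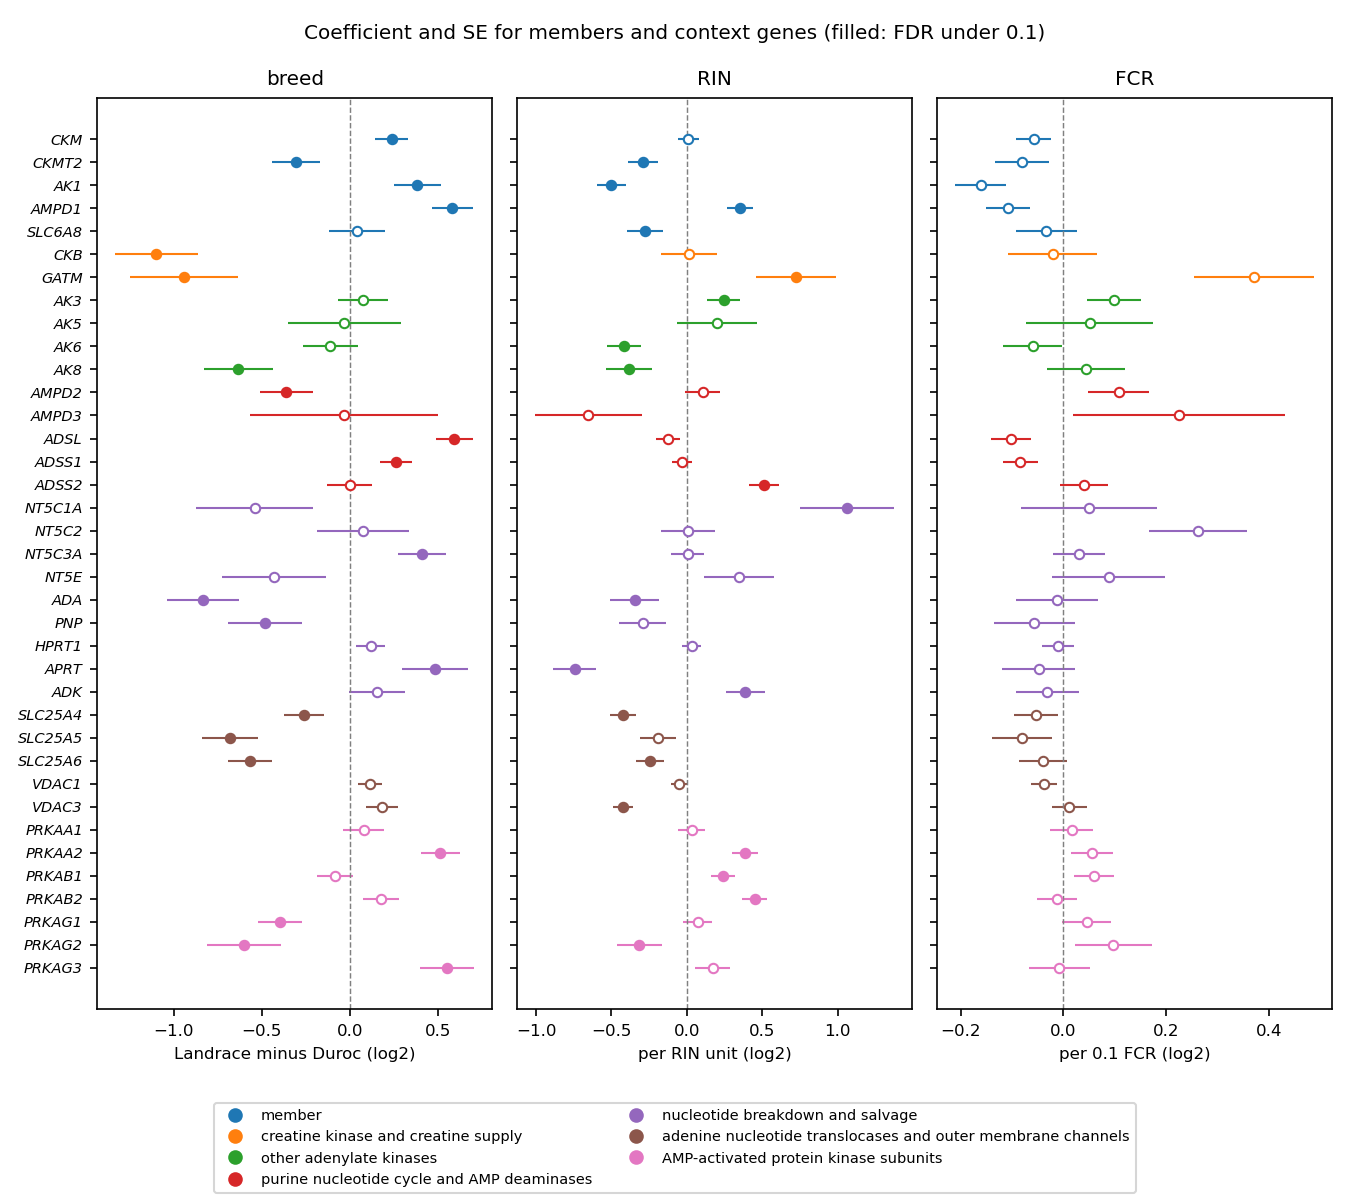
Coefficients with SE of the 5 members and 32 related genes for breed, RIN and FCR on the log2 scale, coloured by group and filled where FDR was under 0.1. For breed 17 of the 32 related genes were filled, for RIN 16 and for FCR 0.

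For RIN 16 of the 32 passed, 8 in each direction, near the 51.8% of all genes, with a median coefficient of 0.01 against -0.01 over all genes. The AMP-activated kinase subunits PRKAB2 (0.45), PRKAA2 (0.38) and PRKAB1 (0.24) rose with RIN as AMPD1 did, and PRKAG2 (-0.32, and 0.0034 on library size only) fell, making 4 of 7 subunits that passed. VDAC3 (-0.42), SLC25A4 (-0.42) and SLC25A6 (-0.24) fell as CKMT2 did, although on library size only VDAC3 and SLC25A4 gave -0.11 each, and SLC25A6 (0.07) and CKMT2 (0.03) were above 0. APRT fell by 0.74 per unit, whereas NT5C1A, a cytosolic AMP nucleotidase, rose by 1.06 and ADK, which turns adenosine into AMP, by 0.39. ADSS2 (0.51), GATM (0.72) and AK3 (0.25) rose and AK6 (-0.42, and -0.10 on library size only) and AK8 (-0.38, and -0.08) fell. CKB (0.01), AMPD3 (-0.65), ADSL (-0.12), ADSS1 (-0.03) and PRKAG3 (0.17) did not pass.

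For FCR 0 of the 32 passed by edgeR, and 4 had an unadjusted p under 0.05, as had 8.68% of all genes. These were GATM (0.37 per 0.1 FCR, edgeR p = 0.00293), NT5C2 (0.26, edgeR p = 0.00898), ADSL (-0.10, edgeR p = 0.0114) and ADSS1 (-0.08, edgeR p = 0.0181). ADSL and ADSS1 shared the sign of AMPD1. AK3 (0.10), AMPD2 (0.11), PRKAB1 (0.06), VDAC1 (-0.04), SLC25A4 (-0.05), CKB (-0.02), AMPD3 (0.23) and PRKAG3 (-0.01) had an unadjusted edgeR p above 0.05.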

How the data were processed

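Per the labels and the study's methods, polyA RNA was sequenced as unstranded paired-end reads, trimmed with Trimmomatic 0.39 and mapped with STAR 2.7.1a to Sscrofa11.1 with Ensembl annotation. The deposited values are counts of read pairs per gene, made by the authors with the gene counting of STAR, with 1 unstranded column and 2 strand columns per pig. The unstranded column was used, and the rows for unassigned reads were left out. Breed, RIN, FCR, age and batch came from the labels. Batch stands for slaughter day in the methods.

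Genes were filtered with filterByExpr (minimum count 10), scaled by TMM and fitted with edgeR 4.0.16 (quasi-likelihood test, R 4.3.3) on FCR, RIN, age, breed and batch, as in the study's joint model, with Benjamini-Hochberg adjustment over 11146 genes and a threshold of 0.1. The SE was derived from the F statistic, and intervals use 32 residual degrees of freedom. CPM for correlations was taken as log2 with a prior count of 2. Ratios and correlations were tested two-sided with 100000 permutations, at the same threshold of adjusted p, in SciPy 1.17.1. DESeq2 1.42.0, limma 3.58.1 with voom, other scalings, filters, covariates and pigs were alternatives. The statistics were tested on simulated data. At the threshold of 0.1, false calls by edgeR there were 12.0% of those for breed, 10.6% for RIN and 6.10% for FCR.

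Members, related genes and marker lists were chosen with earlier results of these data known. Named related genes are up to 3 per group with the smallest p, plus CKB, GATM, GAMT, SLC25A4, ADSS1, AMPD3 and PRKAG3. For each member the 3 most alike genes are named, except 1 that is not reported here. Of 46 related symbols 37 matched an identifier and 32 passed the filter. Each pig is 1 library. Gene symbols were looked up by Ensembl identifier, and positions are those of RefSeq.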

Additional observations from a re-analysis of the deposited data

Results flagged for a closer look

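GAMT, which encodes the enzyme that completes creatine synthesis, had a median of 2 counts per pig (0 to 8) in the unstranded column and was not tested there. In the 2 strand columns together its median was 2441 counts (1610 to 3160), and this signal outside the main measurement is why it is given. With the strand columns summed, GAMT gave 0.11 for breed (edgeR FDR = 0.524), -0.35 per RIN unit (edgeR FDR = 0.00174) and -1.01 per FCR unit (edgeR p = 0.0358, FDR = 0.525). The unstranded column leaves out pairs that more than 1 gene can claim, so these pairs may come from another Ensembl gene and the values may not be those of GAMT alone. No RefSeq gene overlaps GAMT, and the cause of the difference between the columns was not tested.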

How the results depend on the processing

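No paired analysis was possible because every pig was sampled once and belonged to 1 breed. Batch, which both breeds share, is already a term of the model. The alternatives with strand columns summed, batch, RIN or FCR left out, breed as the only term, and single pigs left out were chosen after seeing the data. Of the 4 members called for breed, 2 were called on library size only, with no filter, with age left out, with FCR left out and with the slow-fibre score added, 1 with batch left out and 0 with breed as the only term, and 2 to 3 with single pigs left out. All genes called for breed numbered 2434 with batch left out and 2209 with breed as the only term, which also left 11 of the related genes. On library size only, 534 genes were higher and 3596 lower in Landrace, against 1737 and 1955, and 87.6% of RIN calls were positive against 46.2% (54.1% with no filter). For RIN, 2 members passed with no filter, and 7 related genes without the pigs of RIN under 7. DESeq2 called 5 genes for FCR, 1 for FCR by breed, 2 for FCR within Landrace (1 by edgeR with age left out), 10 for FCR within Duroc and 410 for RIN within Duroc. Age calls were 607 by DESeq2, 45 on library size only, 99 with no filter, 0 with batch left out, 685 with FCR left out and 69 with RIN left out, against 196. SLC6A8 reversed for breed on library size only (-0.12), with age left out (-0.17), with the slow-fibre score added (-0.10), with batch left out (-0.24), with breed as the only term (-0.30) and without Landrace pig 8 (-0.00033), and for FCR on library size only (0.25 per FCR unit) and without Duroc pig 10 (0.20 per FCR unit). For RIN, CKM reversed with age left out (-0.0028), without the pigs of RIN under 7 (-0.0296), with batch left out (-0.0862), without Landrace pig 27 (-0.0145) and without Duroc pig 10 (-0.0330), and on library size only CKMT2 gave 0.0278 and SLC6A8 0.0465. With single pigs left out, SLC6A8 ranged from -0.00033 to 0.15 for breed and from -0.33 to 0.20 per FCR unit, and CKM for RIN from -0.0330 to 0.0401. Among the ratios to CKM, CKMT2 for RIN gave -0.13 without the pigs of RIN under 7, SLC6A8 for RIN gave -0.18 with strand columns summed, and with age left out AK1 for breed gave 0.20, AMPD1 for FCR -0.86 per FCR unit and SLC6A8 for breed -0.35, all 3 calls gained, and SLC6A8 for FCR -0.19 per FCR unit. The cause of these changes was not tested. RIN, FCR and age of the Duroc pigs rest on 13 animals.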
